A study of Mus musculus with 2 samples.

Results

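The genes described here are those of the Pink1 pathway of mitochondrial quality control: the kinase Pink1, the ubiquitin ligase Mul1, the deubiquitinases Usp30 and Usp15, the protease Parl, the phosphatase Pgam5, the channel Vdac1, the autophagy regulator Ambra1 and the redox protein gene Park7. They were taken by symbol from a list of 10, all found among the 23282 rows of each count table, and 9 of them are reported here. RNA was measured in 3T3-L1 cells, a line of mouse fibroblasts able to become fat cells in culture, which the labels call adipocytes. One library came from cells given a control siRNA (title "control") and 1 from cells given an siRNA against Pink1 (title "sipink"). No genotype, dose, time after transfection or stage of differentiation is stated for either group in the sources used here. Each group is a single library, so no difference below has a replicate check or a test, and intervals cover counting error only.

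PINK1 is made in the cytosol and imported into mitochondria, where PARL, a rhomboid protease of the inner membrane, cuts it and the product is degraded. On mitochondria that have lost their membrane potential the kinase stays on the outer membrane, bound to the import pore, and phosphorylates ubiquitin. Ubiquitin chains are then built on outer membrane proteins such as VDAC1, deubiquitinases remove them, and the chains recruit the autophagy machinery. In adipose tissue this route is known for the removal of mitochondria when beige fat cells turn white.

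The promoters of the measured genes at either end of the order of ratios given below are shown first, Pink1 at the low end and Mul1 and Ambra1 at the high end. They are the 250 bases before the start site in RefSeq's GRCm38.p6 table, 5′ to 3′ on the gene's strand, and capitals mark a searched motif. Distances to a start site are counted from the window's 3′ end, which can lie some bases inside the annotated gene. RefSeq starts Mul1 at 138434660 and GENCODE starts Ambra1 at 91730134, each before the end of its window. The table held 8 of the 9 genes, without an entry for Pgam5.
Pink1, chr4:138326297-138326546, minus strand: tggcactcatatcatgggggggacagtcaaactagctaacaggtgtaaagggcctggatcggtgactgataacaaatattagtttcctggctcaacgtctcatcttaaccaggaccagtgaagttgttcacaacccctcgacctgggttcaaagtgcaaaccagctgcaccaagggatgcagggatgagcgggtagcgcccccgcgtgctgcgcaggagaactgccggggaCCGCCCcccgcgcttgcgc
Mul1, chr4:138434422-138434671, plus strand: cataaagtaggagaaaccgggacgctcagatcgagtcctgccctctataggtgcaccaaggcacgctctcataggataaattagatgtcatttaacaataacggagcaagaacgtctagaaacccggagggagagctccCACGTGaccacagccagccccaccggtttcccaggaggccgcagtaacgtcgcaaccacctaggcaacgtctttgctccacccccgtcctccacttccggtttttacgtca
Ambra1, chr2:91729888-91730137, plus strand: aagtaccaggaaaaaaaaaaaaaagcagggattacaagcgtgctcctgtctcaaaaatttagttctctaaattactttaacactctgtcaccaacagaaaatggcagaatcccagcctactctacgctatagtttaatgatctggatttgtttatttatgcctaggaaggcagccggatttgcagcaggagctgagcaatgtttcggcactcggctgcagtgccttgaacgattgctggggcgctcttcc

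Both strands were searched for the GC box (GGGCGG), the CCAAT box (CCAAT), the TATA box (TATAAA) and an E-box (CACGTG), which is not particular to 1 class of genes. Motifs of FOXO (GTAAACA), ATF4 (TGATGCAA) and NRF2 (TGACNNNGC) were searched as well. The Pink1 promoter held 1 GC box, on the strand opposite the gene (so it reads CCGCCC in the sequence shown), from 19 bases before the start site. A GC box was present in 32.7% of the 32851 promoters in the table. Among the genes reported here, Park7, Usp15 and Vdac1, with ratios closer to 1, also had a promoter window with a GC box. The Mul1 promoter held 1 E-box, which reads the same on both strands, starting 111 bases before the start site, and 6.02% of all promoters held one. The Ambra1 promoter held no match to any of the 7 motifs. CpG pairs numbered 13 in the Pink1 window, 16 in that of Mul1 and 7 in that of Ambra1, against a median of 6 over all promoters. A match describes the letters in these windows and says nothing of binding.

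The control library held 13803174 counts and the Pink1 siRNA library 14214768. Levels are given as CPM, the count scaled to the effective library size, and 1 count was worth 0.0714 CPM in both libraries. The kit reads tags from the 3′ ends of transcripts, so the counts were not divided by transcript length. The mature adipocyte markers summed to 2455 CPM in the control and 2629 CPM in the Pink1 siRNA library, with Lep alone of the 11 at 0 in both. Most of that difference came from Fabp4 (1047 and 1196 CPM), and Retn (ratio 1.49), Cd36 (1.35) and Cfd (1.12) were also higher with Pink1 siRNA. Plin1 (ratio 0.607), Slc2a4 (0.510, from 49 and 25 counts) and Cebpa (0.891) were lower. Adipoq (0.994), Lpl (0.998) and Pparg (1.04) were close to 1. Markers of preadipocytes or fibroblasts summed to 18672 and 20883 CPM, so transcripts of both states were present under the label adipocytes. Most of that sum was Dlk1 (8326 and 9329 CPM) and the collagen genes Col3a1 (5841 and 6379) and Col1a1 (3972 and 4564). The 8 ratios ran from 1.003 (Pdgfrb) to 1.47 (Thy1) and 4.25 (Cd34, from 4 and 17 counts). Macrophage markers summed to 4.43 and 3.28 CPM and endothelial markers to 0.571 and 0.4998 CPM. Osteoblast markers summed to 31.1 and 16.3 CPM, nearly all of it Runx2 (419 and 217 counts), while Bglap and Sp7 were at 0. Since these are bulk libraries, fewer cells of a kind and less RNA per cell cannot be told apart.

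Genes with at least 40 counts over both libraries together are called measured here, and these were 11660 rows and the 9 genes reported here. By a rule of size, a level at least 2-fold apart with a 95% counting interval that leaves out a ratio of 1 counts as higher or lower. With Pink1 siRNA, 1.63% of measured genes were higher by this rule and 2.39% were lower, 4.02% in all. Of the 9 measured pathway genes 0 were higher and 0 lower. At their levels few genes pass the rule: of the 500 measured genes nearest in level to each, 0 to 3 passed. The count of 0 is therefore not read as a trait of these genes. The counting interval alone left out 1 for 4 of the 9, below 1 for Pink1 and above 1 for Mul1, Ambra1 and Park7. For Park7 this depends on the scaling. Total-count scaling lowered its log2 ratio from 0.149 to 0.106, enough to bring its interval (1.01 to 1.21) across 1. Over all measured genes it left out 1 for 51.2%, above 1 for 26.2% and below 1 for 24.9%, so the count in the pathway is near the background. The median log2 ratio of the 9 genes was 0.033, against 0.0047 over all measured genes, and all 9 were within 1.5-fold, as were 87.0% of measured genes. Ratios were above 1 for 7 of the 9, but those of Usp15, Pgam5 and Vdac1 were so close to 1 that total-count scaling put them below it, at log2 ratios of -0.025, -0.032 and -0.0097, and upper-quartile scaling did so for Pgam5 (-0.0027).

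The levels of the measured genes spanned 21.4-fold in the control library. Vdac1, the most abundant, held 44.0% of the 7245 counts of the 9 genes in the control library and 44.2% of the 7385 in the Pink1 siRNA library. In the control library the order of levels was Vdac1, Parl, Park7, Usp15, Pink1, Pgam5, Ambra1, Usp30 and Mul1. The exact Poisson intervals of neighbouring levels overlapped between Parl and Park7, between Pink1 and Pgam5, between Ambra1 and Usp30 and between Usp30 and Mul1. In the Pink1 siRNA library Park7 stood above Parl, Pgam5 above Pink1 and Mul1 above Usp30. Of these changes of place, Pgam5 (interval 28.4 to 34.3 CPM) and Pink1 (22.5 to 27.8 CPM) did not overlap in that library, while the intervals of Mul1 and Usp30 overlapped, as did those of Park7 and Parl.

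**Figure D1:**
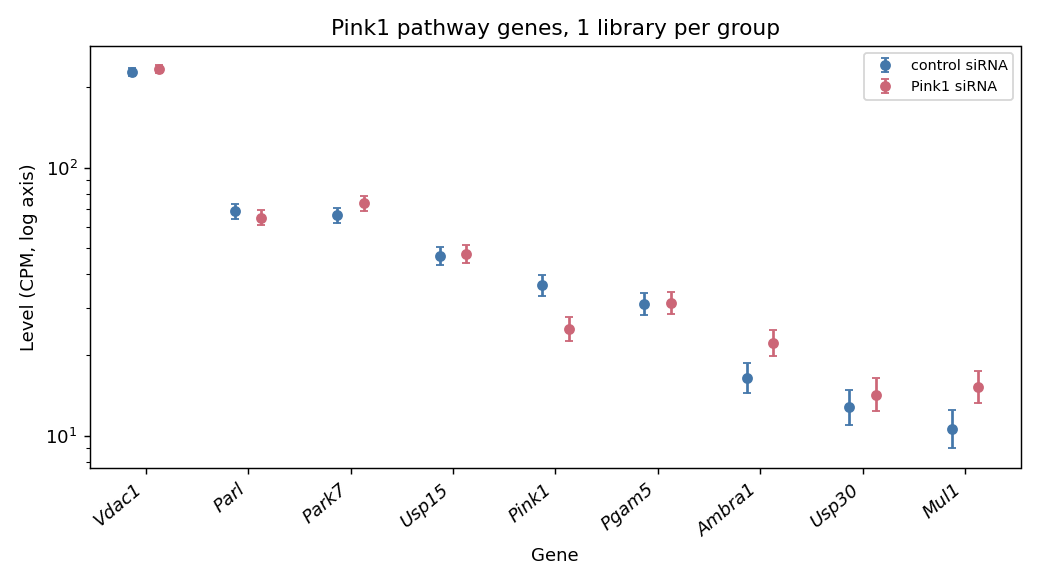
Level of each pathway gene in the control siRNA (blue) and Pink1 siRNA (red) library, in CPM on a log axis, with exact 95% Poisson intervals. Pink1 lies lower in red (25.1 against 36.5 CPM), and Mul1 and Ambra1 lie higher.

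Pink1, the kinase and the target of the siRNA, had 511 counts in the control library and 351 in the Pink1 siRNA library, or 36.5 and 25.1 CPM. It was lower in the library labelled sipink, the direction the label calls for, and the level was 31.3% lower. This is a ratio of 0.687 (counting interval 0.598 to 0.788) and a difference of -11.4 CPM. Pink1 was compared with the 500 measured genes nearest to it in mean level, whose summed counts ran from 786 to 938. Of these, 22 had a ratio as low or lower, and their central 95% ran from 0.653 to 1.55, which takes in the value of Pink1. The interval of 239 of the 500 left out 1, so a counting interval of this kind was common at this level. The gene spans chromosome 4 from 138313409 to 138326307 on the minus strand (GENCODE M21, the GRCm38 build behind mm10). The nearest coding gene to its 3′ end was Ddost, a subunit of the oligosaccharyltransferase, 781 bases away on the other strand, with 1135 and 1299 counts.

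Because a ratio between libraries depends on their scaling, Pink1 was also set against each other measured gene within a library, where scaling drops out. Relative to Park7, Pink1 went from 55.0 counts per 100 Park7 counts in the control to 34.1 in the Pink1 siRNA library. Relative to Vdac1 it went from 16.03 to 10.8 per 100. Relative to Mul1 it went from 343 to 164 per 100, the widest change, with a ratio of 0.479 (counting interval 0.370 to 0.618). The narrowest was against Parl, with a ratio of 0.725 (0.614 to 0.857). All 8 intervals lay below 1, and all 8 share the same Pink1 counts. Among the 28 pairs without Pink1, the interval left out 1 for 11.

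**Figure D2:**
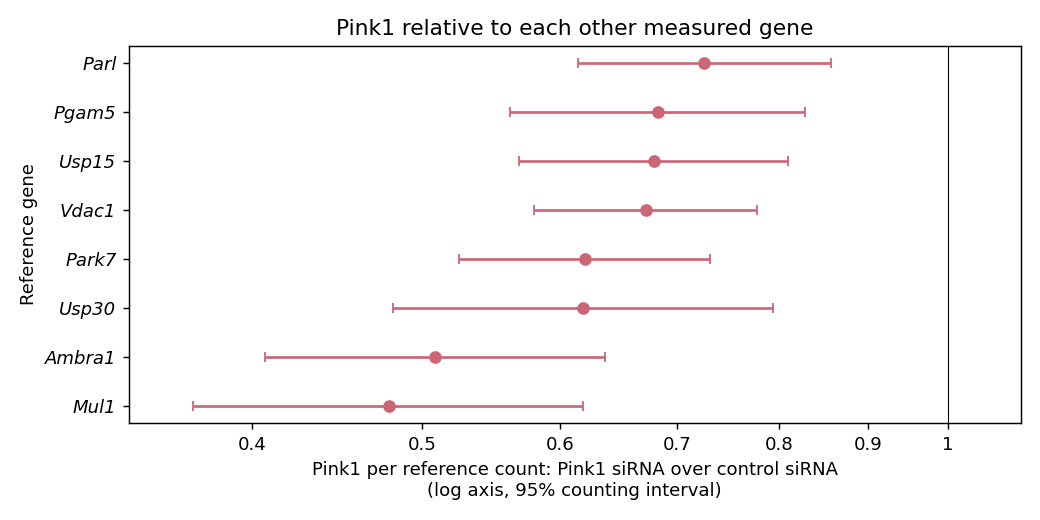
Counts of Pink1 per count of each other measured pathway gene, as the Pink1 siRNA value over the control value, on a log axis with 95% counting intervals. All 8 points lie below 1, from 0.479 against Mul1 to 0.725 against Parl, and all use the same Pink1 counts.

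Mul1, a RING ubiquitin and SUMO ligase anchored in the mitochondrial outer membrane, had 149 counts in the control library and 214 in the Pink1 siRNA library, or 10.6 and 15.3 CPM. It had the highest ratio of the measured genes, 1.44, with a counting interval of 1.16 to 1.78. A ratio as high or higher was seen in 32 of the 500 nearest genes in level, whose central 95% reached 1.62. Its promoter is the one with the E-box above. Mul1 lies on chromosome 4 from 138434671 to 138442265, 108363 bases from Pink1. Camk2n1, an inhibitor of a calcium-dependent kinase and the nearest coding gene to the Mul1 3′ end at 12049 bases, had 107 and 149 counts, a ratio of 1.39 (1.08 to 1.80).

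The deubiquitinases of the pathway had ratios closer to 1. Usp30, which sits in the outer membrane and removes ubiquitin from proteins there, had 180 and 200 counts (12.8 and 14.3 CPM), a ratio of 1.11 (0.904 to 1.37). Usp15, a mostly cytosolic deubiquitinase known to counter mitophagy, had 659 and 667 counts (47.0 and 47.6 CPM), a ratio of 1.01 (0.908 to 1.13). Both counting intervals included 1. In the GENCODE annotation Usp30 overlaps Alkbh2, a DNA repair gene on the other strand, over 795 bases, and Alkbh2 had 57 and 102 counts. Since strand use in counting was not given, reads of the pair may not be separable there, although the RefSeq models do not overlap. Usp30 also overlaps Svop on the other strand in GENCODE, which had only 10 and 14 counts.

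The protease and the phosphatase of the pathway were also near 1. Parl had 963 and 912 counts (68.7 and 65.1 CPM), a ratio of 0.947 (0.864 to 1.04), the one measured gene besides Pink1 with a ratio below 1 under the main scaling. Pgam5, a serine/threonine phosphatase that PARL also cuts and that acts on the mitophagy receptor FUNDC1, had 435 and 438 counts (31.1 and 31.3 CPM), a ratio of 1.01 (0.880 to 1.15). Among the genes of similar level, 170 of 500 had a ratio as low as that of Parl or lower, and 256 of 500 as low as that of Pgam5. Both therefore lay within the central 50% of their neighbours.

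Vdac1, the voltage-dependent anion channel of the outer membrane and a protein that is ubiquitinated in mitophagy, had 3188 and 3261 counts (228 and 233 CPM). Its ratio of 1.02 had the narrowest counting interval of the set, 0.974 to 1.07, since it has the most counts. At its level the interval of 371 of 500 genes left out 1, and that of Vdac1 did not.

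Ambra1, which binds Beclin 1 to promote autophagy, had 231 and 312 counts, or 16.5 and 22.3 CPM. Its ratio was 1.35 (1.14 to 1.61), second to Mul1 among measured genes, and 39 of its 500 neighbours in level were as high or higher. Relative to Mul1 the 2 libraries gave 155 and 146 Ambra1 counts per 100, a ratio of 0.940 (0.711 to 1.24), so the difference between both genes was within counting error. Park7, whose product DJ-1 protects cells from oxidative stress and is mutated in inherited Parkinson disease, had 929 and 1030 counts, or 66.3 and 73.5 CPM. Its ratio was 1.11 with an interval of 1.01 to 1.21, just above 1 under the main scaling, and 129 of 500 genes of similar level were as high or higher.

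Set against genes of similar level, all 9 ratios lay within the central 95% of their neighbours and 6 within the central 50%. The 3 outside the central 50% were Pink1 on the low side and Mul1 and Ambra1 on the high side. The last 500 bases of the annotated transcripts matched another annotated gene, at 95% identity over at least 100 bases, for 4 of the 9 genes. These were processed pseudogenes for Parl (Gm13181) and Vdac1 (Gm15502) and noncoding RNA genes on the other strand for Usp15 (Gm4129) and Pgam5 (Gm26718), so the counts of these genes carry that uncertainty. Pink1, Park7, Usp30, Mul1 and Ambra1 had no such match.

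**Figure D3:**
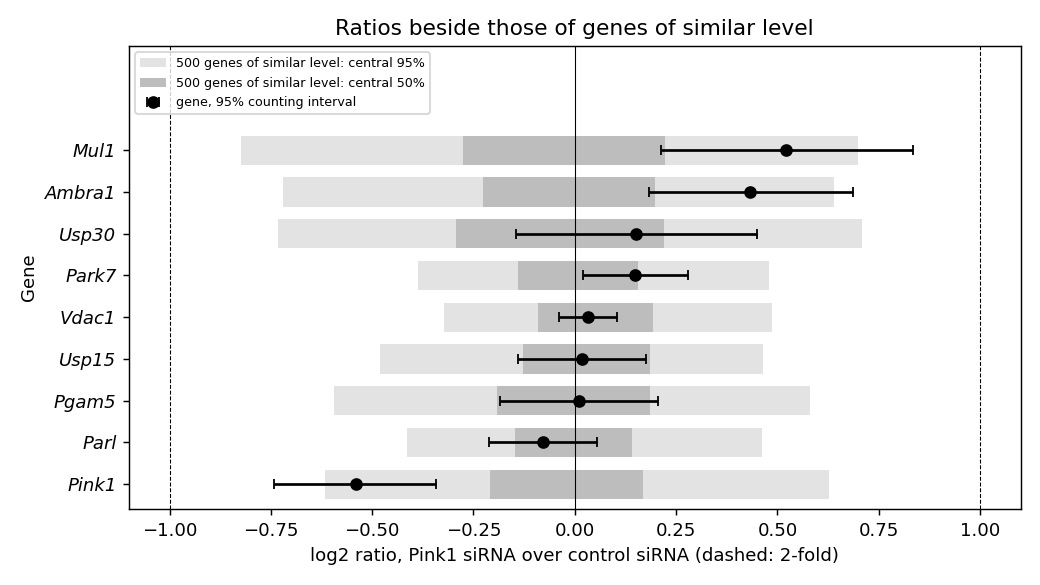
The log2 ratio (Pink1 siRNA over control siRNA) of the 9 measured genes with 95% counting intervals, over the central 50% (dark) and 95% (light) of the 500 measured genes nearest in level. Pink1 (-0.54), Ambra1 (0.43) and Mul1 (0.52) lie outside the dark bars, and all 9 points lie inside the light ones.

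The other genes of the pathway were described through 6 lists with 107 symbols, of which 102 were measured. By the rule of size 0 of the 102 were higher (background 1.63%) and 0 lower (2.39%). That background depends on level: with a summed count of at least 200, only 26 of 9490 genes were higher and 40 lower. The counts of 0 are therefore not read as a trait of the lists. Ratios were above 1 for 57 and below 1 for 45, with a median log2 ratio of 0.042. The genes named below are the 2 highest and 2 lowest ratios of each list. Their ranks among genes of similar level are therefore those of picked extremes.

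Among 19 genes for the import and processing of the PINK1 protein the median log2 ratio was -0.034. Stoml2, a scaffold of the inner membrane that binds PARL, had 366 and 220 counts, a ratio of 0.601 (0.506 to 0.712), and 12 of 500 genes of similar level were as low or lower. The import receptor subunit Timm50 had 139 and 95 counts, a ratio of 0.684 (0.521 to 0.894). At the other end were the outer membrane import pore Tomm40 (1152 and 1457 counts, ratio 1.26) and Tomm7 (4044 and 4860 counts, ratio 1.20), the small subunit that holds PINK1 at the pore. The genes around Pink1 import thus spread to both sides of 1. Stoml2 has a processed pseudogene, Gm5626, with a near-identical 3′ end.

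Outer membrane proteins that are ubiquitinated in mitophagy had a median of -0.0047 over 13 genes. The lowest were hexokinase gene Hk1 (841 and 656 counts, ratio 0.780) and Vdac2 (2698 and 2275 counts, ratio 0.843), a paralog of Vdac1. The highest were the fusion gene Mfn2 (439 and 554 counts, ratio 1.26) and the cell death gene Bak1 (410 and 492 counts, ratio 1.20). Hk1 overlaps Hk1os (54 and 70 counts), Bak1 overlaps Ggnbp1 (28 and 29), Vdac2 overlaps Comtd1 by 25 bases (229 and 242) and has a processed pseudogene.

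The other ubiquitin enzymes, 21 measured of 22, had a median of 0.044. Atxn3, a deubiquitinase, had 248 and 143 counts, a ratio of 0.577 (0.466 to 0.711), with 11 of 500 genes of similar level as low or lower. The ligase gene Siah1a had 518 and 377 counts, a ratio of 0.728. Usp35, a deubiquitinase reported on mitochondria, had 128 and 161 counts, a ratio of 1.26 (0.991 to 1.60). The ubiquitin-activating enzyme gene Uba1 had 3991 and 4881 counts, a ratio of 1.22. Its annotated 3′ ends match stretches in 15 other genes and Siah1a overlaps Gm10638 (98 and 69 counts), so their counts are uncertain.

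Mitophagy adaptors and receptors had the highest median of the 6 lists, 0.20 over 12 measured genes, with 8 ratios above 1. The adaptor Optn, which links ubiquitin chains to autophagosomes, lay farthest from 1, with 127 and 64 counts (ratio 0.504, 0.367 to 0.686), and 13 of 500 genes of similar level were as low or lower. Fundc1, the receptor of hypoxia-induced mitophagy on which PGAM5 acts, had 658 and 491 counts, a ratio of 0.746. The adaptor Nbr1 had 1094 and 1398 counts, a ratio of 1.28, and Nipsnap1, a mitochondrial protein exposed on damaged organelles, had 178 and 216 counts, a ratio of 1.21. Autophagy initiation genes, the machinery that AMBRA1 engages, had a median of 0.048 over 20 genes. Atg13 of the ULK complex was highest (245 and 324 counts, ratio 1.32) with the kinase Ulk2 next (417 and 499, ratio 1.20). The conjugation gene Atg5 (375 and 334, ratio 0.891) and Atg14 of the Beclin complex (276 and 246, ratio 0.891) were lowest, both with intervals that included 1.

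PARL and PGAM5 partners and other Parkinson disease genes had a median of 0.034 over 17 measured of 20. Lrrk2, the kinase most often mutated in inherited Parkinson disease, had 134 and 230 counts, or 9.57 and 16.4 CPM. Its ratio was 1.72 (1.38 to 2.14), and 9 of 500 genes of similar level were as high or higher. Chchd2, a mitochondrial intermembrane space gene mutated in Parkinson disease, had 14612 and 22137 counts, a ratio of 1.52, with 2 of 500 genes of similar level as high or higher. Its 3′ end has near-identical copies in 4 other annotated genes and it overlaps Phkg1 (110 and 99 counts), so its count is uncertain. The stress kinase Map3k5, which PGAM5 activates, had 205 and 153 counts (ratio 0.746), and Clpb, an intermembrane space chaperone cut by PARL, had 351 and 281 (ratio 0.801).

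**Figure D4:**
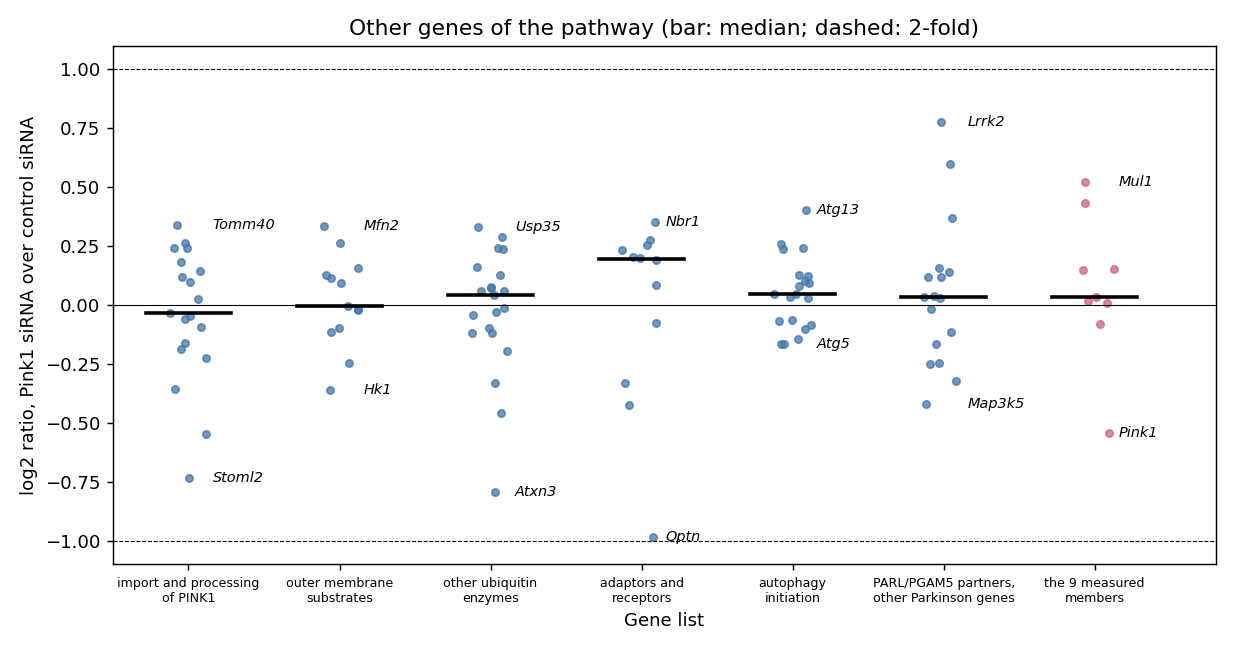
The log2 ratio (Pink1 siRNA over control siRNA) of each measured gene in the 6 pathway lists (blue) and of the 9 measured genes of the main set (red), with bars at medians and dashed lines at 2-fold. No point passes 2-fold, and Optn (-0.98), Atxn3 (-0.79) and Lrrk2 (0.78) lie farthest out.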

How the data were processed

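RNA of 2 libraries, 1 per group, was prepared from total RNA with a 3′ tag kit, per the labels' protocols. The authors deposited 1 table of raw read counts by gene symbol for each library. Tools named in the submitters' processing notes are Bowtie2, bedtools and bcl2fastq 2.20.0.422, with the mm10 build. For the annotation, strand use and treatment of multiply mapped reads, nothing is given in the sources used here. No molecular identifiers are mentioned. If none were used, copies of 1 molecule count as separate reads, and the counting intervals given here would be too narrow.

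Counts were scaled by TMM (edgeR 4.0.16, R 4.3.3), and 0.5 was added before the log2 ratio. Intervals of ratios are exact conditional binomial (Clopper-Pearson) and those of levels exact Poisson, at 95% (SciPy 1.17.1). The quasi-likelihood test could not be fitted without replicates, so no p-value is given. Of 23238 distinct symbols, 35 were shared by 79 rows, which were counted but not named. Copies of 3′ ends were sought with BLAST 2.17.0 in GENCODE M21 transcripts. Named genes were the pathway genes, their overlapping or nearest neighbours and, in each list, genes past the rule plus the 2 highest and 2 lowest ratios. The genes and lists were chosen with earlier results of these data known. Alternatives were other scalings (DESeq2 1.42.0 among them), pseudocount, filters, folds and numbers of neighbouring genes. Of the list of 10 pathway genes, 1 is not reported here.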

Additional observations from a re-analysis of the deposited data

How the results depend on the processing

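Each log2 ratio of the 9 genes stayed within its counting interval under the 5 alternatives tried on it (total-count, DESeq2 median-of-ratios and upper-quartile scaling, TMM without the ribosomal RNA precursor Rn45s, and 5 added before the log). Across the scalings Pink1 ran from -0.58 to -0.54, Mul1 from 0.48 to 0.52 and Ambra1 from 0.39 to 0.43. The counts of measured genes past the rule of size moved with its terms, as a change of filter or fold does by construction. They were 597 higher and 853 lower with no filter, 26 and 40 at a summed count of at least 200, 633 and 774 at a ratio of at least 1.5, and 23 and 44 at a ratio of at least 4. The count of the 10 listed genes past the rule stayed at 0 in both directions under each of these, except that with no filter 1, a gene not reported here, was higher. With the 200 nearest genes in place of 500, the share with a lower ratio than Pink1 went from 4.4% to 2.5%. This puts Pink1 at the edge of the central 95% of its neighbours. The other 17 ranks recomputed with 200 or 1000 genes stayed within the exact 95% binomial interval of the share with 500. No library could be left out, since each group has 1. No paired analysis was possible because each group has a single library and no test was run. Among the 9 reported pathway genes Mul1 had the fewest counts, 363 in all.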

Other observations

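The RefSeq table places 10 coding genes, Pink1 included, within 200 kb of Pink1 on chromosome 4, and they were looked at after the values of Pink1 and Mul1 were seen. Cda, the cytidine deaminase gene that lies 12231 bases from Pink1, had 31 counts in the control library and 9 in the Pink1 siRNA library, 2.21 against 0.643 CPM. Its ratio of 0.290 (counting interval 0.122 to 0.625) passed the rule of size, with a summed count right at the filter of 40. Of all 11660 measured genes, 279 were lower by the rule. Only 40 were lower among the 9490 with a summed count of at least 200, so passing was more common at low counts. The call of Cda is therefore not read as a trait of that gene. On the other side of Pink1, Ddost had a ratio of 1.14 (1.06 to 1.24) and Kif17 had 7 and 2 counts. Farther out, Hp1bp3 had 3740 and 3274 counts (ratio 0.875), Sh2d5 64 and 44 (0.688, interval 0.457 to 1.03) and Eif4g3 1187 and 1531 (1.29), while Fam43b had 0 in both. The genes around Pink1 thus had ratios on both sides of 1.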
